A study of Bos taurus with 4 samples.

Results

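The 8-oxoG loci assigned to FAM207A and POFUT2 lay together on bovine chromosome 1, in a stretch that the lists annotate as distal intergenic, and made up the largest group of neighbouring loci in the sperm DNA of both bulls. They were every entry of the fertile and the infertile bull's locus lists to which FAM207A or POFUT2 was assigned as the nearest gene in the annotation behind the lists, 59 of 984 entries in all. The list of C13 held 21 of them among 370 entries and the list of C14 held 38 among 614. The genes were chosen by the number of their entries in the measured lists and by how closely these lay together, so their number and their closeness describe that choice and are given without a test.

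C13 was a fertile and C14 an infertile bull of Korean native striped cattle, both 6 years old, and the material of both was DNA extracted from sperm. From each bull 1 library of captured 8-oxoG fragments and 1 library of input DNA were sequenced. With 1 bull in each state, the difference between fertile and infertile cannot be told apart from the difference between these animals or between their libraries, and no value below has a replicate. Every locus was read from the authors' list of its bull. The lists give no library totals, and the read totals that the study states were not used here, so each number of fragments is compared between bulls as it was listed and is not scaled for depth.

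8-oxoG is guanine oxidised by reactive oxygen species, which can pair with adenine and so lead to G-to-T changes on replication. It is normally removed by base excision repair, begun by the glycosylase OGG1, and late spermatids and sperm have little of this repair left. OG-seq attaches biotin to 8-oxoG in sheared DNA, captures those fragments on streptavidin and sequences the released strands. FAM207A, now named SLX9, encodes a ribosome biogenesis factor. POFUT2 encodes an enzyme of the endoplasmic reticulum that adds O-fucose to thrombospondin type repeats of secreted proteins. Each gene was assigned to a locus because its transcription start site (TSS) was the closest among the genes of the annotation used for the lists, which may lack genes of other annotations, so the symbols mark a place and no activity of the genes was measured.

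In the coordinates of the lists (bosTau8), FAM207A (gene 512069) lay on the plus strand at chr1:145154624-145178774 and POFUT2 (gene 404083) on the minus strand at chr1:145597292-145610047. The genes thus point towards each other, and 418517 bp separate them. The loci filled the middle of this stretch, downstream of both genes. In C13 they reached from 145293963 to 145450621, a span of 156659 bp, and in C14 from 145293925 to 145450629, a span of 156705 bp. The outer ends of the cluster therefore differed between the bulls by 38 bp on the left and by 8 bp on the right. In C13 the first locus began 115188 bp past the end of FAM207A, and the last ended 146670 bp before POFUT2. All 21 entries of C13 and all 38 of C14 were annotated as distal intergenic in the lists, and none was annotated to an exon, an intron, a UTR or a promoter.

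In the RefSeq annotation of another assembly, ARS-UCD2.0, used only for the order of genes, 1 protein-coding gene lies between FAM207A and POFUT2. It is ADARB1, which encodes an adenosine deaminase that edits RNA. It was assigned to 0 loci in C13 and 0 loci in C14. The same annotation has 3 long non-coding RNA genes in this stretch, each also assigned to 0 loci. A gene of the annotation behind the lists with its TSS in this stretch would have been nearer to some loci than FAM207A or POFUT2. The counts of 0 therefore cannot show that loci lie away from these genes. The genes may be missing from that annotation. The positions of these genes relative to the loci were not analysed here, since the builds differ.

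**Figure D1:**
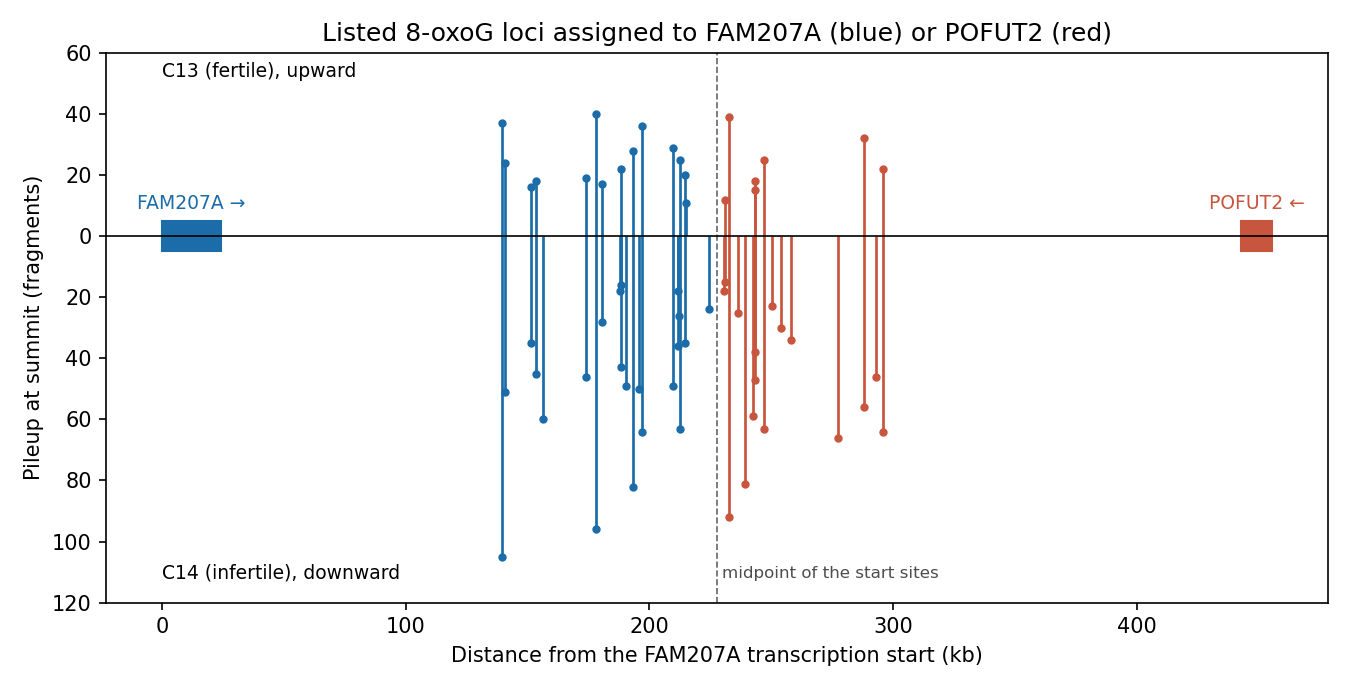
Pileup at the summit of each listed locus (fragments, C13 upward and C14 downward) against its distance from the FAM207A transcription start in kb, with FAM207A loci in blue, POFUT2 loci in red and the gene bodies as boxes with their direction. The loci of both bulls filled the same stretch between the genes, and the colour changes at the midpoint of the start sites.

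The loci continued on both sides of the point where the assigned gene changed. The gap across that point was 15435 bp in C13, above the median gap of 4345 bp there, and 5769 bp in C14, above the median of 3086 bp. The distance to the assigned TSS ran from 139339 to 214702 bp for FAM207A and from 159426 to 224399 bp for POFUT2 in C13. In C14 it ran from 139301 to 224506 bp and from 159418 to 224396 bp. The last FAM207A locus of C14, at chr1:145379130-145379402 with a pileup of 24 fragments, was 224506 bp from the FAM207A TSS and 230645 bp from that of POFUT2. The first POFUT2 locus, at chr1:145385172-145385651 in C14 with a pileup of 18, was 224396 bp from the POFUT2 TSS and 230548 bp from that of FAM207A. The border between the gene names thus followed the midpoint of the start sites, and loci of both names are described together below.

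The nearest loci outside the cluster were far away. In C13 the next locus on the left was assigned to TFF2, a trefoil peptide gene, 1166143 bp away with a pileup of 4 fragments. On the right it was assigned to PIK3R4, which encodes a regulatory subunit of a phosphatidylinositol kinase, 7765620 bp away with a pileup of 9. In C14 the neighbours were a locus assigned to TFF3, another trefoil peptide gene, at 1178678 bp with a pileup of 21 and a locus assigned to CHAF1B, a chromatin assembly factor subunit, at 4944814 bp with a pileup of 5. Each of these distances was longer than the cluster itself.

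Some entries were separate summits of the same interval. The 14 FAM207A entries of C13 fell into 13 distinct intervals and the 7 POFUT2 entries into 6. In C14 the 22 FAM207A entries fell into 18 intervals and the 16 POFUT2 entries into 14. The intervals with several summits were 2 in C13 and 4 in C14. The widest, at chr1:145342618-145343485 in C14, spanned 868 bp with summits of 18, 43 and 16 fragments. From here on a locus is an interval with the values of its highest summit, which gives 19 loci of 353 in C13 and 32 of 575 in C14.

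Linked over gaps of at most 100 kb, these loci were the largest group in either list. In C13 the next groups held 12 loci near RNF122 and TTI2 and 10 near ST3GAL4, among 190 groups of which 122 were single loci. In C14 the next held 24 loci near ST3GAL4 and 18 near DUSP26, RNF122 and TTI2, among 295 groups with 215 single loci. In number of loci per 100 kb the cluster was not the densest, and several groups with fewer loci were denser. It held 12.1 in C13, where the 7 loci near TMEM261 came to 16.0 and the 5 loci near PAK1 to 32.0. It held 20.4 in C14, where the 15 loci near WRN, a DNA helicase gene, came to 25.4 and the 10 loci near FAM107A to 28.3.

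Gaps between neighbouring loci were mostly a few kilobases. In C13 the 18 gaps ranged from 1002 to 40802 bp with a median of 4345 bp, and 10 of them were under 5 kb. In C14 the 31 gaps ranged from 200 to 18821 bp with a median of 3086 bp, and 23 were under 5 kb. Between neighbouring loci elsewhere in the genome the median gap reached 353088 bp in the C13 list and 170126 bp in that of C14. The listed intervals covered 5591 bp of the C13 span, which is 3.57%, and 9652 bp or 6.16% of the C14 span. Most of the stretch between the outermost loci was therefore not listed in either bull.

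The pileup, which is the number of captured fragments over the summit, was high for the lists in both bulls. In C13 it ranged from 12 to 40 fragments with a median of 24, and the other 334 loci had a median of 9. In C14 it ranged from 18 to 105 with a median of 49, and the other 543 loci had a median of 17. All 19 C13 loci and all 32 C14 loci were above the median of the other loci of their list. By fold enrichment over the input, the cluster stood out less. The C13 median fold was 10.5 in the cluster and 7.23 elsewhere, and 14 of 19 loci exceeded the latter. For C14 these medians were 8.25 and 6.68, and 23 of 32 loci exceeded the latter. The cluster held 5.38% of the C13 loci and 10.9% of their summed pileup, and 5.57% of the C14 loci and 11.4% of the summed pileup. The FAM207A and POFUT2 sides were alike in level, with medians of 24 and 23.5 fragments in C13 and of 49 and 51.5 in C14.

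The locus at the FAM207A edge of the cluster had the highest fold enrichment of all its loci in both bulls. At chr1:145293963-145294223 in C13 the pileup was 37 fragments and the fold enrichment over the input was 25.8. In C14 the interval chr1:145293925-145294224 had 105 fragments and a fold of 39.6. Its fold had rank 3 in the C13 list and rank 4 in the C14 list. Its neighbour, 1002 bp away in C13, was lower on both measures. At chr1:145295226-145295434 the pileup was 24 fragments in C13 and 51 in C14, and the fold was 4.70 and 3.46.

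Other high loci of the FAM207A side stood in its centre. The locus at chr1:145332678-145332901 had 40 fragments in C13, the highest pileup of the cluster in that bull, and 96 in C14, with the same start and end in both lists. The locus at chr1:145351457-145351799 had 36 fragments in C13 and 64 in C14 and folds of 21.5 and 19.5. The locus at chr1:145347805-145348131 had 28 fragments in C13 and 82 in C14, and its fold was 13.5 and 22.3. On the POFUT2 side the highest locus, at chr1:145387189-145387392, had 39 fragments in C13 and 92 in C14. The locus at chr1:145442561-145442815 had 32 and 56 fragments, and that at chr1:145401520-145401758 had 25 and 63. The weakest locus of both bulls was the first on the POFUT2 side, at chr1:145385172-145385648, with 12 fragments in C13 and 18 in C14.

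Every locus of the cluster found in C13 was also found in C14. Counting any overlap of 1 bp or more, all 19 C13 loci had a partner in C14, beside 55.0% of the whole C13 list. In C14 19 of the 32 loci had a partner in C13, which is 59.4%, beside 33.9% of the whole list. The overlap was 13 of 18 C14 loci on the FAM207A side and 6 of 14 on the POFUT2 side. These shares come from the same lists by which the genes were picked, and the high pileup of the cluster moves with them. The part of the pileup in the overlap was not tested.

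The shared loci matched closely in position. The summits of a pair were a median of 10 bp apart, and 10 of the 19 pairs had summits within 10 bp. The median over the other 176 shared pairs was 18 bp. In 18 of the 19 pairs the summits were at most 67 bp apart. The exception was the locus at chr1:145385172-145385648, where the highest summit of C14 lay 332 bp from that of C13. C14 had a second summit of 15 fragments in this interval, 39 bp from its end. The start of the interval was identical in 8 of 19 pairs and the end in 6, beside 24 and 18 of the other 176 pairs. Both ends were identical at chr1:145307989-145308292 and chr1:145332678-145332901.

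Pileup was higher in C14 at all 19 shared loci. The ratio of C14 to C13 ranged from 1.5 to 2.93 with a median of 2.36. Over the other 176 shared pairs it ranged from 0.8 to 7 with a median of 2.51, and 173 of them were higher in C14. With exact 95% binomial intervals on the fragments of each pair, which cover counting error only, 16 of the 19 ratios lay above 1. All 19 intervals included the median ratio of the other pairs. A C14 pileup of at least 2 times that of C13 was found at 12 of the 19 loci, which is 63.2%, beside 76.9% of all 195 shared pairs. The higher pileup of C14 was thus general to the lists. The lowest local background listed, a value that many loci of a list shared, was also 2.66 times higher in C14. The part of library depth in the ratio was not tested.

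**Figure D2:**
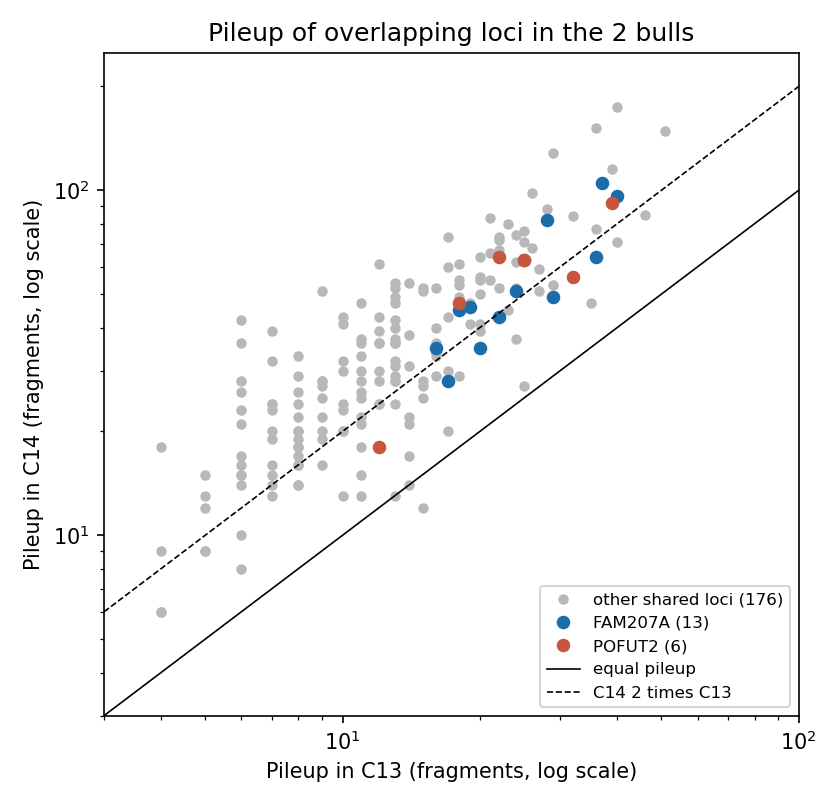
Pileup in C13 against pileup in C14 (fragments, log axes) for the 195 overlapping pairs of loci, with FAM207A loci in blue, POFUT2 loci in red, all others in grey, a solid line at equal pileup and a dashed line at 2 times. The 19 pairs of the cluster lie above the line of equal pileup and within the spread of the other pairs.

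The highest ratios were found on both sides of the cluster. The locus at chr1:145347805-145348131 had the highest ratio, 2.93, with an interval of 1.89 to 4.67. The last locus of the POFUT2 side, at chr1:145450418-145450621, had 22 fragments in C13 and 64 in C14, a ratio of 2.91 with an interval of 1.77 to 4.96. The first locus of the FAM207A side had a ratio of 2.84 with an interval of 1.93 to 4.25. The lowest ratio was 1.5, at the first POFUT2 locus, with an interval of 0.684 to 3.41. The other ratios whose interval reached below 1 were 1.65 at chr1:145335187-145335390, from 17 and 28 fragments, and 1.75 at chr1:145369326-145369736, from 20 and 35. The intervals of the highest and the lowest ratio overlapped, so the loci could not be ranked by their ratio at this number of fragments.

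**Figure D3:**
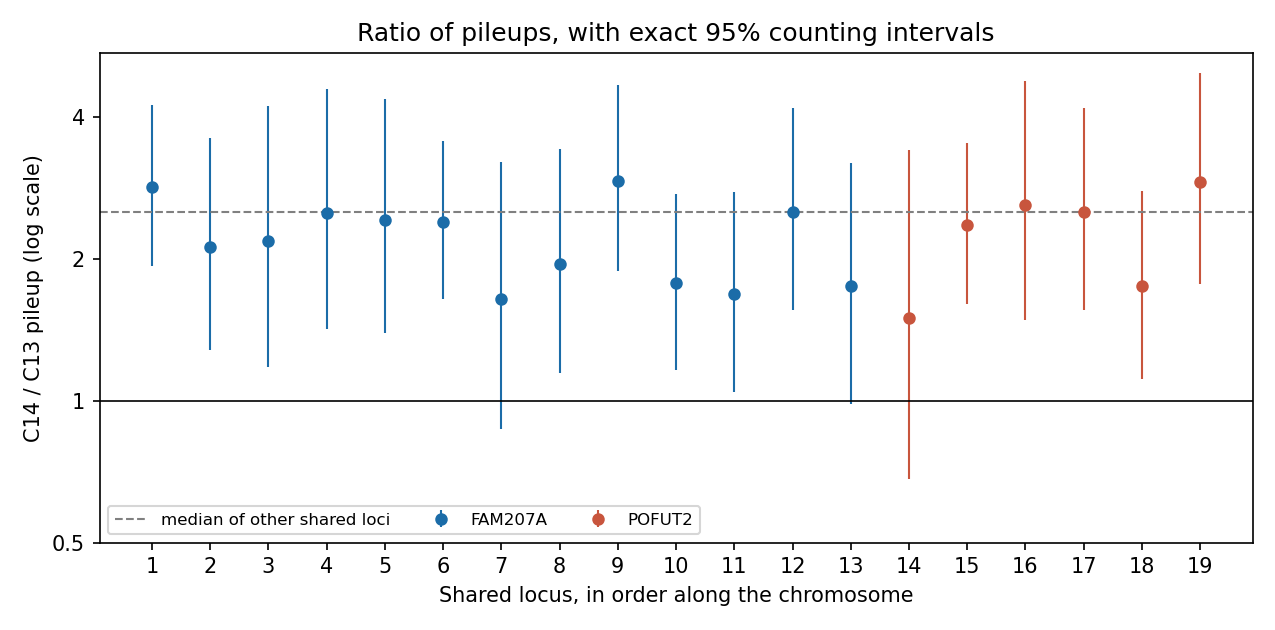
Ratio of C14 to C13 pileup (log axis) at the 19 shared loci in order along the chromosome, with FAM207A loci in blue and POFUT2 loci in red, bars for the exact 95% binomial interval and a dashed line at the median of the other shared pairs. All 19 bars cross the dashed line and 16 stay above 1.

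Fold enrichment did not follow the pileup. It divides the pileup by the local background, the level that the peak caller sets from the input for the locus, with 1 added to both. The fold was lower in C14 than in C13 at 13 of the 19 shared loci and higher at 6, and the median ratio was 0.891. Among the other shared pairs 93 of 176 had a higher fold in C14, with a median ratio of 1.04. The highest ratio was 1.65, at chr1:145347805-145348131. The lowest ratio was 0.565, at chr1:145364073-145364395, where the fold went from 5.39 to 3.05. Whether C14 was above or below C13 at these loci therefore differed between pileup and fold.

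The local background was raised at every locus of the cluster. Its median was 1.05 fragments in C13, beside 0.195 at the other loci, and 3.64 in C14, beside 0.971. The lowest value in the list was 0.135 in C13, at which 113 of the 334 other loci and 0 of the 19 loci of the cluster stood. In C14 it was 0.359, with 50 of the 543 other loci and 0 of 32. The median of the cluster was 7.78 times the lowest value in C13 and 10.2 times in C14. That lowest value was shared by many other loci of each list, so it was not particular to the place of a locus. The local background thus stood above the lowest value at the loci of the cluster in both bulls, and its part in the listing of the loci was not tested.

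**Figure D4:**
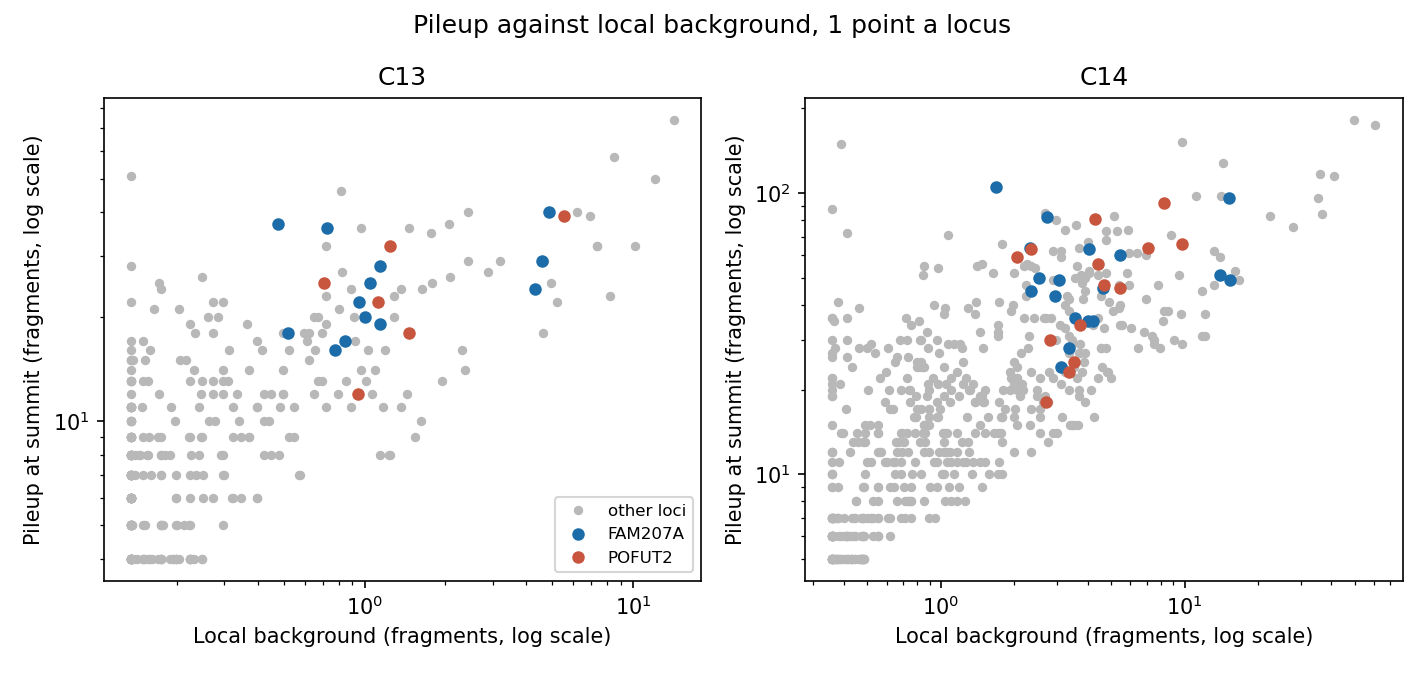
Pileup at the summit against local background (both in fragments, log axes) for every locus of C13 (left) and C14 (right), with FAM207A loci in blue, POFUT2 loci in red and all others in grey. The loci of the cluster lie at high pileup and at a background above the lowest value in both panels.

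In C13 a small set of loci had a higher background than the rest. The 4 loci at chr1:145295226-145295434, chr1:145332678-145332901, chr1:145364073-145364395 and chr1:145387189-145387392 had backgrounds of 4.32 to 5.53 fragments. The other 15 shared loci had 0.476 to 1.46. In C14 the same 4 loci, picked by their C13 background, had 8.25 to 15.4 and the other 15 had 1.68 to 7.10. A locus found in C14 alone, at chr1:145431835-145432037, had 9.74, within the range of the 4, so the set did not stand apart in C14 as it did in C13. The 4 loci reached high pileups, from 24 to 40 in C13 and from 49 to 96 in C14, with folds of 4.70 to 6.99 and of 3.05 to 10.0.

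C14 held 13 loci in the cluster that no C13 locus overlapped, 5 on the FAM207A side and 8 on the POFUT2 side. These were 13 of 32, a smaller share than the 367 of 543 among the other loci of the C14 list. The 2 of the 13 with the highest pileup were on the POFUT2 side. The locus at chr1:145393700-145393923 had 81 fragments and a fold of 15.5, and that at chr1:145431835-145432037 had 66 and 6.24. A further POFUT2 locus, at chr1:145397010-145397277, had 59 and 19.6, the highest fold of the 13. On the FAM207A side the strongest were chr1:145310874-145311094 with 60 fragments and a fold of 9.48, chr1:145350331-145350561 with 50 and 14.4, and chr1:145344995-145345218 with 49 and 12.3. Next came chr1:145447506-145447700 with 46 fragments, and the other 6 had 23 to 36. The weakest was chr1:145404920-145405114.

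In pileup these 13 loci were about as high as the shared ones of the cluster. Their median was 46 fragments, beside 51 at the 19 shared loci of the cluster. Elsewhere in the C14 list the 367 loci without a C13 partner had a median of 12 fragments and the 176 with a partner had 30.5. Only 74 of those 367, or 20.2%, reached the 23 fragments of the weakest of the 13. The median local background was also higher, 3.52 fragments at the 13 and 0.757 at the 367. By fold the medians were closer, 8.11 at the 13 and 5.89 at the 367. The shared loci had a median fold of 8.45 in the cluster and 9.83 elsewhere. The list of C13 gives no value at the places of the 13, so the fragments there were not analysed here and the difference between the bulls was not tested.

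**Figure D5:**
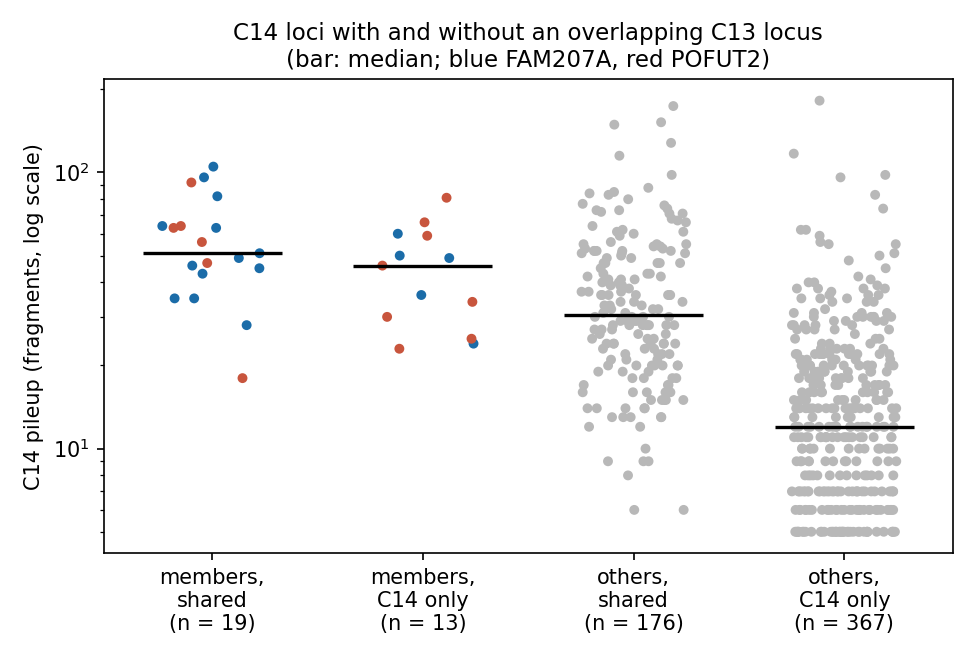
Pileup (fragments, log axis) of the C14 loci of the cluster and of all other C14 loci, each split by whether a C13 locus overlapped them, with 1 point a locus, FAM207A in blue, POFUT2 in red and bars at the medians. The medians were 51 and 46 fragments in the cluster and 30.5 and 12 elsewhere.

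The loci found in C14 alone stood between shared loci and did not widen the cluster. They lay in 8 of the 18 gaps of C13, from 201 to 11056 bp from the nearest C13 locus with a median of 3162 bp. The largest C13 gap, 40802 bp on the POFUT2 side between 145401758 and 145442561, held 4 of them. The largest gap left in C14, 18821 bp, lay inside it between 145413013 and 145431835. The nearest to a C13 locus was chr1:145366165-145366870, an interval with 3 summits of 36, 18 and 26 fragments. It ended just before the shared locus at chr1:145367071-145367524, which had 25 fragments in C13 and 63 in C14.

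The other genes with the most entries over both lists were ST3GAL4 with 38, WRN with 21 and TTI2 with 18, beside 36 for FAM207A and 23 for POFUT2. ST3GAL4 encodes a sialyltransferase, and TTI2 a cofactor in the maturation of PIKK kinases. All 10 C13 loci of ST3GAL4 overlapped C14 loci, and 10 of its 24 C14 loci overlapped C13 loci. For WRN the counts were 5 of 6 and 5 of 15, and for TTI2 they were 4 of 8 and 4 of 10. The shares over the whole lists were 55.0% in C13 and 33.9% in C14. The median pileup of ST3GAL4 was 21.5 fragments in C13 and 43.5 in C14, near the values of FAM207A and POFUT2. Those of WRN were 11 and 27 and those of TTI2 were 9.5 and 19.5. The median background was 0.820 and 3.18 fragments for ST3GAL4, 0.210 and 1.72 for WRN, and 0.359 and 1.08 for TTI2. The ST3GAL4 loci thus shared the high pileup, the raised background and the full overlap of the C13 loci with the FAM207A and POFUT2 cluster, and no test of a difference among these genes was made.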

How the data were processed

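A list of 8-oxoG loci per bull was used. As the study's methods describe, the authors aligned 1 captured and 1 input library of each bull to bosTau8 with the Isaac aligner, filtered out duplicates by Picard and ran MACS2 on each captured library against its input. Loci with a fold over 2 and q under 0.05 were retained and assigned to genes by ChIPseeker. Pileup was deposited as a signal, the whole number of captured fragments at the summit, not normalized between bulls. Fold was deposited as the ratio of pileup to local background with 1 added to both, and the local background was computed back from it. The q values were deposited as −log10 of the adjusted MACS2 Poisson p-value. Values of C14 were read from records whose sequence field spans several lines. No value of the 370 and 614 records fell outside the range of its unit, and 2 columns of values, the −log10 p of each list, were left unused.

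Members were the entries assigned to FAM207A or POFUT2. These members and the genes compared with them were chosen with earlier results of these data known. The other genes named were those of the nearest loci on each side, the 3 other symbols with the most entries, and protein-coding genes between the members. Genes of the other linked groups, RNF122, DUSP26, TMEM261, PAK1 and FAM107A, were named after their values were seen. Both gene numbers were found in the RefSeq table of ARS-UCD2.0. No sequence of the loci is shown, since the sequence field held none for them and no genome of this build was used here. Overlaps were found with bedtools version 2.31.1, and ratios have exact binomial 95% intervals from scipy version 1.17.1. Tables were handled in Python (version 3.11.15) by pandas (version 2.3.3) and numpy (version 2.4.6), and figures came from matplotlib (version 3.10.9). The overlap and background computations were tested on simulated data. No test across loci was made. Stricter q limits, other definitions of overlap and other measures of level were tried as alternatives.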

Additional observations from a re-analysis of the deposited data

How the results depend on the processing

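Of 30 alternative values of 11 results, 29 stayed close to the value reported. These covered counting distinct intervals, q under 0.01, a −log10 q of at least 5, a reciprocal overlap of at least 50%, summits within 100 bp, pileup minus local background and gaps from summit to summit. Some of them could not change a result. The lowest −log10 q of an entry was 4.37 in C13 and 2.02 in C14, so q under 0.01 removed none. Every locus had at least 5.87 in C13 and 5.61 in C14, so the limit of 5 could change only counts of entries. A fall from 22 FAM207A entries of C14 to 18 distinct intervals was counted as close. A reciprocal overlap of at least 50% left 17 of the 19 shared loci, and the median ratio was 2.30 on pileup minus local background. On fold enrichment in place of pileup the median C14 to C13 ratio over the shared loci moved from 2.36 to 0.891, since fold divides by a background that was also higher in C14. No paired analysis was possible because each bull had 1 library of each kind and no replicates. Pileups of 12 to 40 fragments in C13 limit the precision of each ratio.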

Other observations

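In many loci of the cluster the summit lay at a similar distance from the start of the interval. It was 77 to 92 bp from the start in 9 of 19 C13 loci and in 13 of 32 C14 loci, beside 25.7% of the other C13 loci and 20.8% of the other C14 loci. The range of distances was chosen after the values were seen, and no test was made.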
